A study of Mus musculus with 2 samples.

Results

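Cdx1, Cdx2 and Cdx4 are the caudal-type homeobox genes of the mouse, and they were followed here through all 4 probe sets that the platform annotation assigns to them. They are 3 of the 18193 genes with a probe set of a single gene symbol, and 4 of 34945 such probe sets. Affymetrix 3' arrays gave their expression in Flk1+Tie2+ cells, a fraction that contains endothelium, sorted from embryoid bodies of A2lox.Mesp1 embryonic stem cells (129/Ola background) on day 5. Embryoid bodies are aggregates in which stem cells differentiate. Both samples carry the Mesp1 transgene, which doxycycline (dox) switches on. One culture was left untreated, and the other was given dox at 250 ng/mL from day 2 until day 4. No array of dox-treated cells without the transgene was analysed, so an effect of dox itself and one of Mesp1 cannot be told apart. Each condition has a single array, so no replicate error or p-value exists, and every difference describes these 2 samples.

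Cdx proteins are homeodomain transcription factors related to caudal of the fruit fly. In the embryo their genes are switched on in the posterior primitive streak and tail bud, downstream of Wnt, FGF and retinoic acid signals, and the proteins bind regulatory DNA of Hox genes and help set the position of trunk and tail segments. In blood formation Cdx genes are known to act through Hox genes. Cdx2 has separate roles in the trophoblast, the outer layer that forms placenta, and in the lining of the intestine. Mesp1, the induced factor, is a basic helix-loop-helix protein of early mesoderm.

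The sequences before the starts of Cdx2, the member that differed, and of Cdx4, a dim member, are shown so that their upstream DNA can be compared. Each is the 250 bases before the annotated start in RefSeq on GRCm38.p6, written 5′ to 3′ on the gene's strand. The Cdx2 window is chr5:147307250-147307499 on the minus strand, and the Cdx4 window is chrX:103321148-103321397 on the plus strand. Of the 3 genes, 2 had a window. Capitals mark the octamer ATGCAAAT, a sequence bound by POU factors, which was picked after the sequences had been read.
Cdx2: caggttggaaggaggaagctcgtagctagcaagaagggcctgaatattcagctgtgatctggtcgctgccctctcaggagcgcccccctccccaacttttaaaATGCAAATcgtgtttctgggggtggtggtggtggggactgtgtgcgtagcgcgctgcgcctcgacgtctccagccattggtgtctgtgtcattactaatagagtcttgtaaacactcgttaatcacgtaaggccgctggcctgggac
Cdx4: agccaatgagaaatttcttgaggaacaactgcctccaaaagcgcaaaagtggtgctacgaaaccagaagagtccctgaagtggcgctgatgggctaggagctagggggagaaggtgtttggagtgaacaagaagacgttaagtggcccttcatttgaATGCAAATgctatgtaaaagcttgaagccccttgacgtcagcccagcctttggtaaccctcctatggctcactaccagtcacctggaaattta

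The octamer begins 147 bases before the start of Cdx2 and 93 bases before that of Cdx4. On either strand it occurs in 1.60% of the 32851 upstream windows of this length. The E-box CANNTG, the kind of site that helix-loop-helix proteins bind, occurs 1 time before Cdx2 and 4 times before Cdx4, where 1 match overlaps the octamer, and 66.2% of all windows hold at least 1. Neither window holds the caudal motif TTTATNG (9.81% of windows do) or the TCF/LEF motif ATCAAAG (3.21%), which says only that these letters are not in these 250 bases. Pou5f1, the POU factor of pluripotent cells, had signals of 52.8 without dox and 46.3 with dox, both below the array medians. Genes of other POU factors were not examined here.

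Cdx2 was lower with dox by its brighter probe set. The signal was 708 without dox and 77.9 with dox, in the arbitrary units of the table. Without dox the probe set was brighter than 75.4% of all probe sets on its array, and with dox it lay below the array median, brighter than 40.7%. Differences are given as log2(signal + 16), dox minus no dox, and each fold is 2 to that power. By this measure Cdx2 differed by -2.95, or 7.71-fold lower, and the plain ratio of the signals was 9.08. The added 16 damps noise of dim probe sets and understates their change. In these bulk samples fewer cells with Cdx2 transcripts and less transcript per cell cannot be told apart.

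The dimmer probe set of Cdx2 did not show this difference. Its signals were 9.86 without dox and 28.4 with dox, a log2 difference of 0.78 in the opposite direction. Both values lay far below the array medians of 112 and 127, since only 10.4% and 22.1% of probe sets were dimmer. Of 6135 named probe sets with signals under 30 on both arrays, 8.38% differed by at least as much in either direction, and the central 90% of them ran from -0.72 to 0.74. The 2 probe sets share the transcript accession NM_007673, and which part of it each one reads could not be checked here. A dim second probe set is common. Among 72 genes with exactly 2 probe sets whose brighter one passed the signal filter and was 2-fold or more lower, the other probe set was below the filter in 35. Of those 35 it was lower with dox in 25 and higher in 9. The call for Cdx2 therefore rests on 1 probe set, and the mean of both gave a log2 difference of -1.08.

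Cdx1 and Cdx4 had signals too dim to compare. The only probe set of Cdx1 was at 1 on both arrays, the floor of the table, as were 256 of the 45037 probe sets (0.568%). No difference can be read from values at the floor. The only probe set of Cdx4, the caudal gene on the X chromosome, had 5.46 without dox and 4.76 with dox, a log2 difference of -0.05. On these arrays 6.88% and 6.17% of probe sets were dimmer. The table carries no detection calls, so neither gene can be called absent, and a difference in either was not detectable with these probe sets.

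**Figure D1:**
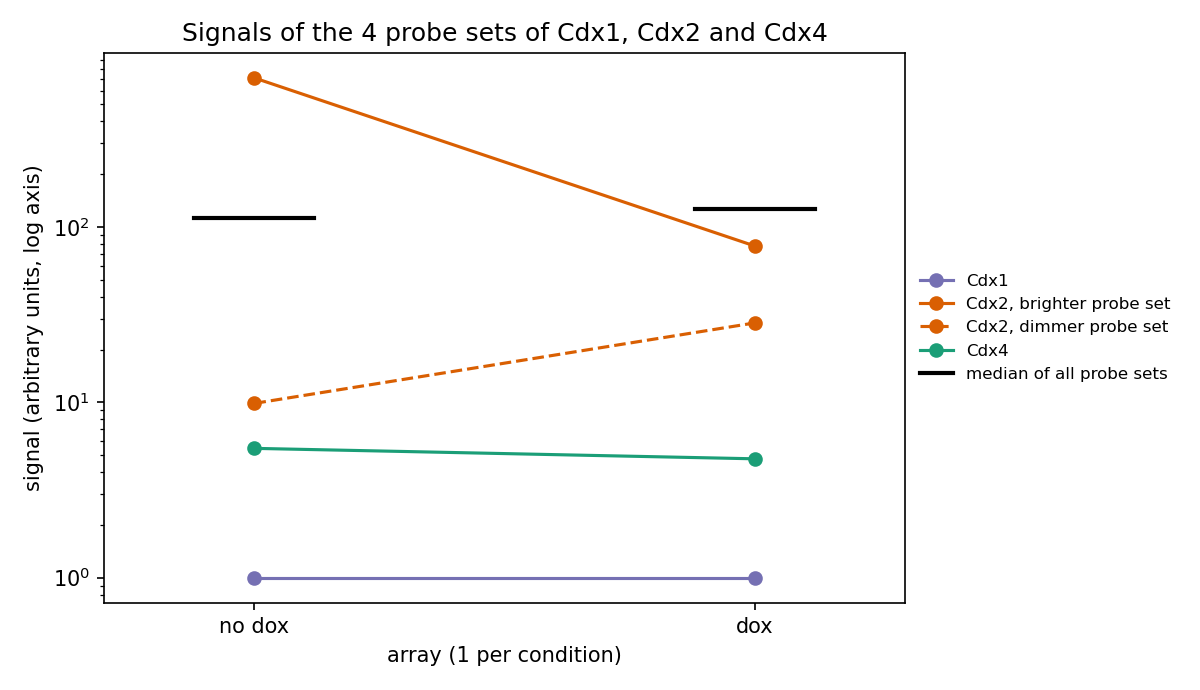
Signal (arbitrary units, log axis) of each of the 4 probe sets on the array without dox and the array with dox, joined by lines, 1 array per condition, with black bars at each array's median (112 and 127). The brighter Cdx2 probe set drops from 708 to 77.9, while the dimmer one, Cdx4 and Cdx1 lie below both medians on both arrays.

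A signal filter kept genes whose brightest probe set reached the array median on at least 1 array, which left 11794 genes and, of the 3 caudal genes, Cdx2. Cdx2 passed through the array without dox. Of the genes past the filter 2.06% were 2-fold or more lower with dox and 5.69% were 2-fold or more higher. After both arrays were scaled to one median the higher genes made up 56.8% of those past 2-fold, against 73.4% as deposited. That scaling moved the median of all genes by -0.18 and left Cdx2 2.98 below it, against 2.99 as deposited. Counting Cdx2, 4 genes had a difference as low as it or lower, and the others were Gldc, Fgf3 and Zfp646. That count was 7 with a pseudocount of 1, 9 with one of 64 and 148 with the mean of all probe sets, so the place of Cdx2 depends on its brighter probe set. Among the 2530 probe sets with a mean signal within 25% of that of the brighter Cdx2 probe set, 2.45% were 2-fold or more lower and 5 were as low as Cdx2 or lower, Cdx2 included. The central 90% of their differences ran from -0.74 to 1.05.

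**Figure D2:**
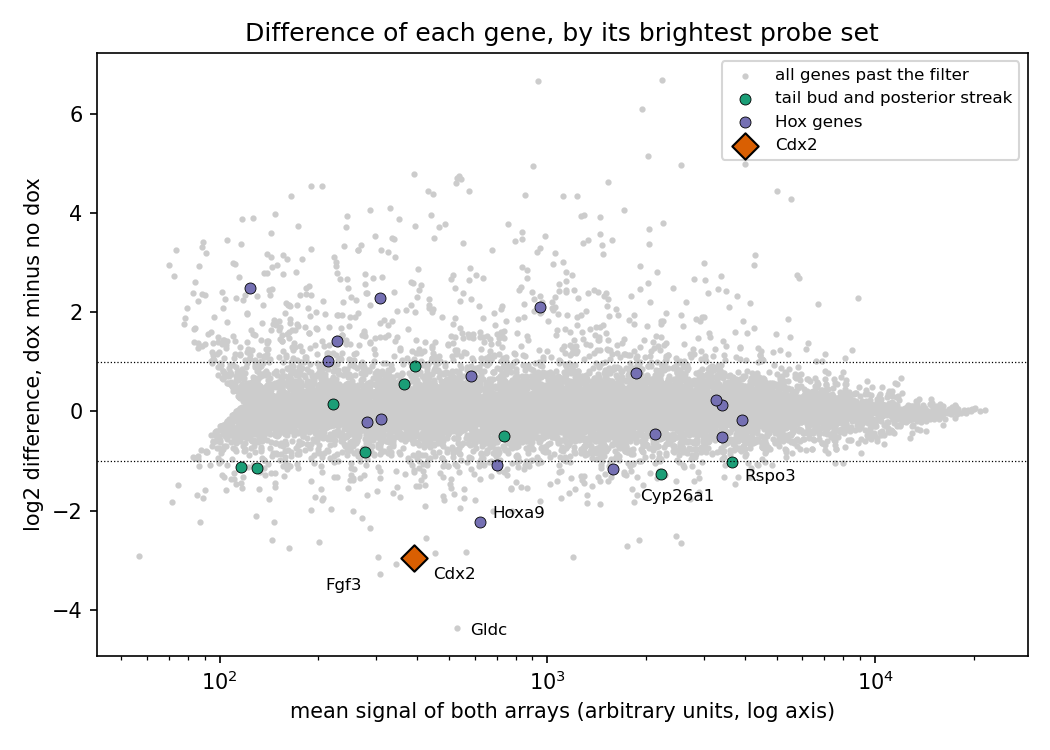
Log2 difference (dox minus no dox, vertical axis) against the mean signal of both arrays (arbitrary units, log axis) for the 11794 genes past the signal filter, 1 grey point per gene, with dotted lines at 2-fold. Cdx2 (orange, -2.95) lies near the lower edge, below the Hox genes (purple) and the tail bud genes (green).

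The genes whose difference was nearest to that of Cdx2 were Tfec (-2.94), a MiT family transcription factor, Atp2a3 (-2.94), a calcium pump, and the claudin gene Cldn23 (-2.92). Myb (-2.85), a transcription factor of blood progenitors, and Fermt3 (-2.84), an integrin activator of blood cells, followed. Likeness was the distance in log2 difference over these 2 arrays, among genes whose probe sets past the filter all had one direction. Over 2 arrays this orders genes by the size of 1 difference and shows no shared pattern.

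The cells carried the defining transcripts of the sorted fraction in both samples. The gene of Flk1, Kdr, had 10139.7 without dox and 10732.5 with dox, and that of Tie2, Tek, had 8799 and 9277. Mesp1 was 4.49-fold higher with dox (2433 and 10977, the value without dox first, as in every pair below). All 16 endothelial markers passed the filter, with a median difference of -0.11. Of these Eng was 2.40-fold higher, Cldn5 was 2.63-fold lower and 14 were within 2-fold by their brightest probe sets. Among those 14, another probe set past the filter was 3.51-fold lower for Erg and 2.47-fold lower for Fli1. The remaining probe sets past the filter of the 14 genes were within 2-fold. Markers of other cell types also differed between the samples. Of all genes past the filter 5.69% were 2-fold or more higher and 2.06% lower. Of 13 smooth muscle and mesenchyme markers 12 passed the filter and 9 were 2-fold or more higher. The summed signal of the 13 was 6049 without dox and 42196 with dox, with Cnn1 at the floor without dox. Of 10 cardiomyocyte markers, none at the floor, 8 passed the filter and 6 were 2-fold or more higher. The sum over the 10 was 2682 and 8465. Of 15 measured blood markers 13 passed the filter and 4 were 2-fold or more lower. The sum over the 15 was 20872 and 13389.5. Of 10 measured markers of allantois and extraembryonic mesoderm 8 passed the filter and 5 were 2-fold or more higher. One of the higher genes, Postn, is also in the smooth muscle and mesenchyme list. By any amount 7 of the 8 were higher, and Vcam1 was lower at -0.54. Tbx4 (-0.42) and Pitx1 (-0.003) were below the filter. The pluripotent, endodermal and neural lists had only 4 genes past the filter each, and none of these differed 2-fold by its brightest probe set. The neural marker Nes was 1.96-fold lower by that probe set and 3.07-fold lower by another past the filter. None of the blood markers was at the floor on either array. Of the genes in these lists that passed the filter, 3 of blood did so through the array without dox alone. Through the dox array alone passed 3 of cardiomyocytes, 4 of smooth muscle and mesenchyme, and 1 each of the allantois and endoderm lists. The filter therefore in part sets the direction of these counts. The part of these differences in the lower Cdx2 signal was not tested.

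Of 23 measured signals and factors known to act upstream of Cdx genes, 15 passed the filter. Among these 15 genes 2 were 2-fold or more higher and 2 lower, against 5.69% and 2.06% of all genes past the filter. The median over the 15 that passed the filter was 0.16, against 0.05 for all genes. Fgf3, a streak and tail bud FGF, was 9.63-fold lower (571 and 44.9), and its remaining probe sets differed by -2.66 and -0.86. Evx1, a homeobox gene of the posterior streak, was 2.17-fold lower (166 and 67.8). In the other direction Bmp4, which induces ventral and posterior mesoderm, was 4.63-fold higher (720 and 3398). Rarb, a retinoic acid receptor gene that retinoic acid itself induces, was 5.90-fold higher (69.2 and 486). Fgf3 and Evx1 passed the filter through the array without dox alone and Rarb through the dox array alone, so the filter in part sets their direction. With a filter on both arrays Bmp4 was the only one of these genes left past 2-fold.

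The Wnt genes past the filter were within 2-fold by their brightest probe sets, in both directions. Wnt3a, the tail bud Wnt ligand, differed by 0.16 (209.51 and 235.3). Lef1, a nuclear effector of Wnt signals, was lower by -0.50 with its brightest probe set and by -1.10 with the other, and Axin2, a Wnt target, by -0.82. Wnt5a, a ligand of the noncanonical branch, differed by 0.91, and its other probe sets gave -0.14, 0.72 and 0.47. Tcf7l1, a repressor of Wnt targets, differed by 0.43 and 0.33 with its 2 probe sets. Fgf8 and Aldh1a2, a ligand and a retinoic acid synthesis enzyme of the early axis, were at the floor of 1 on both arrays, as was the retinoic acid receptor gene Rara. No probe set with the single symbol T (Brachyury) was analysed here.

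Genes of the tail bud and posterior streak, the tissue in which Cdx genes are best known, were lower in part. Of 24 measured genes 9 passed the filter. Among these 4 were at least 2-fold lower, and no gene was 2-fold higher. Of all genes past the filter 2.06% were 2-fold or more lower and 5.69% higher. With a filter on both arrays 7 of the tail bud genes were left, 2 of them 2-fold or more lower and none higher. Cyp26a1, an enzyme that breaks down retinoic acid and a known Cdx target, was 2.39-fold lower (3145 and 1308). Rspo3, a secreted enhancer of Wnt signals, was 2.03-fold lower (4904 and 2403), and its dimmer probe set differed by -1.12. Nkx1-2, a homeobox gene of axial progenitors, was 2.20-fold lower (185 and 74.9), but its dim probe sets gave 0.42 and -0.15. Nkx1-2 and Evx1 passed the filter through the array without dox alone, so their direction is in part set by the filter. The median of the 9 genes was -0.82, while that of all 24 was -0.07. Tbx6 (63.9 and 111) and Msgn1 (35.8 and 50.1), regulators of presomitic mesoderm, lay below the array medians on both arrays.

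Hox genes, the best known targets of Cdx proteins, differed by their place in the cluster. Paralogue numbers run from 1 at the 3' end, expressed towards the head, to 13 at the 5' end, expressed towards the tail. Of 8 genes of paralogues 1 to 4 past the filter 7 were higher with dox by any amount, or 6 of 8 after scaling to one median or with the mean of all probe sets. As deposited, the median over all genes past the filter was 0.05, so most of those genes were also higher by any amount. Of the 8 genes of paralogues 5 to 9 past the filter 6 were lower, or 7 of 8 after either rescaling. By 2-fold or more these 8 were evenly split, with 2 higher and 2 lower. Paralogues 1 to 4 had 3 genes higher by that size and none lower. Of all genes past the filter 5.69% were higher and 2.06% lower by 2-fold or more. Hoxd10 was the only one of paralogues 10 to 13 past the filter and was 2.12-fold lower (958 and 443). The other 9 measured genes of paralogues 10 to 13 were below the filter, where a sign carries little weight.

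In the Hoxa cluster Hoxa2 (26.4 and 221), Hoxa3 (94.4 and 525) and Hoxa5 (348 and 1551) were 5.60-fold, 4.90-fold and 4.30-fold higher. Hoxa9, a factor of blood progenitors, was 4.68-fold lower (1034 and 209), and Hoxa7 lay between them at -0.22. In the Hoxb cluster Hoxb1 was 2.67-fold higher (117 and 338). Within 2-fold were Hoxb2 (0.12), Hoxb3 (0.77), Hoxb4 (0.72) and Hoxb5 (-0.46). Hoxb6 was 2.23-fold lower (2195 and 977). In the Hoxd cluster differences ran from 0.24 for Hoxd1 to -1.09 for Hoxd10, with -0.15, -0.17 and -0.51 for Hoxd3, Hoxd8 and Hoxd9. Among the genes past the filter, the more 5' a gene lay in these 3 clusters, the lower its difference tended to be.

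Across the 17 Hox genes past the filter the difference fell with the paralogue number, with a Spearman's rho of -0.69 and a Pearson's r of -0.64. Within clusters rho was -1 over 5 Hoxa genes, -0.83 over 6 Hoxb genes and -1 over 5 Hoxd genes. Hoxc had 1 gene past the filter and so no value. The Hoxd order includes Hoxd3 at -0.15 and Hoxd8 at -0.17, which are closer than the SD of 0.38 between probe sets of one gene. Over all 33 measured Hox genes, dim ones included, rho was -0.54 in all and -0.75 for 9 Hoxa, -0.67 for 9 Hoxb and -0.26 for 8 Hoxd genes. With the mean of all probe sets of each gene past the filter rho was -0.72 over the 17 genes, and it was -0.67 over the 15 genes that reached the median on both arrays. These are correlations across genes of the same 2 arrays, and neighbouring Hox genes are not independent. Probe sets disagreed for several genes. Hoxa5 gave -0.06, Hoxa9 -0.02 and Hoxb3 -1.16 by another probe set, and Hoxc6, 2.04-fold higher by its brightest one, gave -0.23. Hoxa3, 4.90-fold higher by its brightest probe set, gave 0.45, 0.32 and 0.09 by its others, all below the filter. Hoxa2 and Hoxa3 passed the filter through the dox array alone. The caudal motif TTTATNG was found before 2 of the 22 Hox genes with an upstream window, Hoxb8 and Hoxd4, and neither had a probe set of its own here. That is near the share of all upstream windows with the motif, 9.81%.

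**Figure D3:**
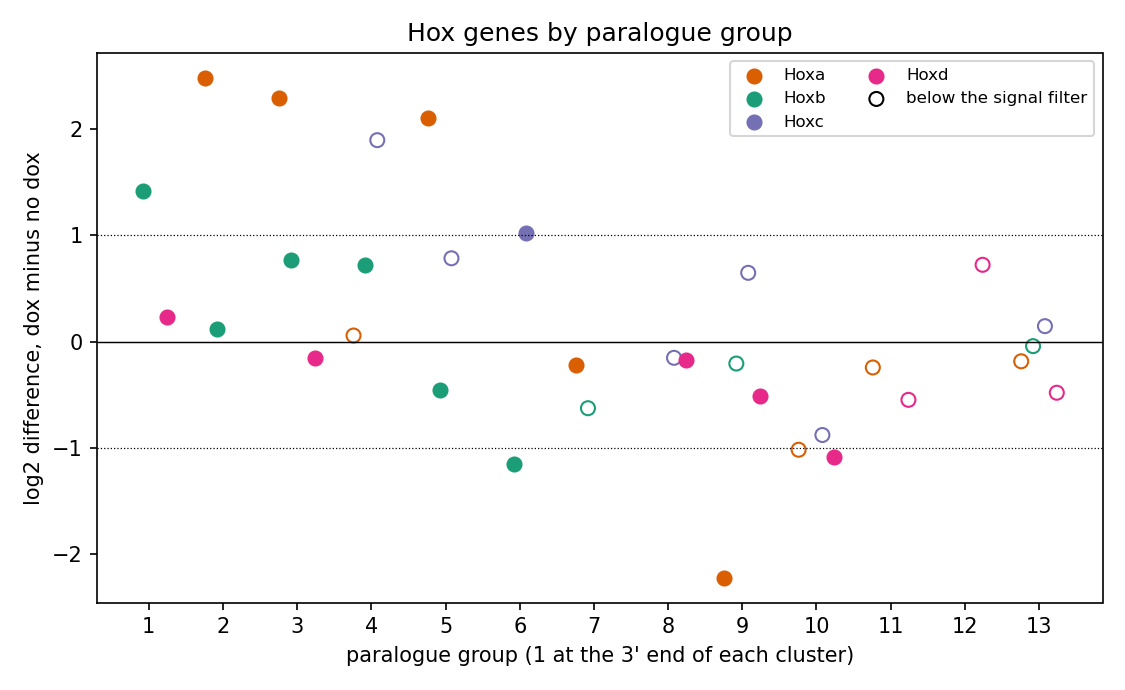
Log2 difference (dox minus no dox) of each measured Hox gene by paralogue group, coloured by cluster, 1 point per gene by its brightest probe set, with open points below the signal filter and dotted lines at 2-fold. Past the filter 7 of 8 genes of paralogues 1 to 4 lie above 0 (6 of 8 after scaling to one median or by the mean of all probe sets), and 6 of 8 of paralogues 5 to 9 lie below it (7 of 8 after either rescaling). By 2-fold or more, 2 of the 8 genes of paralogues 5 to 9 were higher and 2 lower.

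Markers of the other tissues in which Cdx2 acts were measured in the same samples. For comparison, 5.69% of all genes past the filter were 2-fold or more higher and 2.06% lower. Of 15 measured trophoblast genes 10 passed the filter, and 3 were at least 2-fold higher, with no gene 2-fold lower. The higher genes were the keratins Krt8 (1095 and 5934) and Krt18 (969 and 3467), which many epithelia express, and the FGF receptor gene Fgfr2 (248 and 639). By any amount 6 of the 10 were higher and 4 lower. Most of all genes past the filter were also higher by any amount, with a median of 0.05. The lowest of the 10 was the trophoblast factor Tfap2c at -0.81 (121 and 62.2), which passed through the array without dox alone. The trophoblast factor Eomes was within 2-fold at -0.55 (342 and 229), and Elf5, which maintains trophoblast stem cells, was dim on both arrays (67.8 and 48.6). Of 19 measured intestinal genes 6 passed the filter and all 6 lay within 2-fold. Cdh17, a cadherin of the gut and a known Cdx2 target, had signals of 10.8 and 8.56, and Hnf4a, a factor of gut and liver, 89.9 and 66.8.

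**Figure D4:**
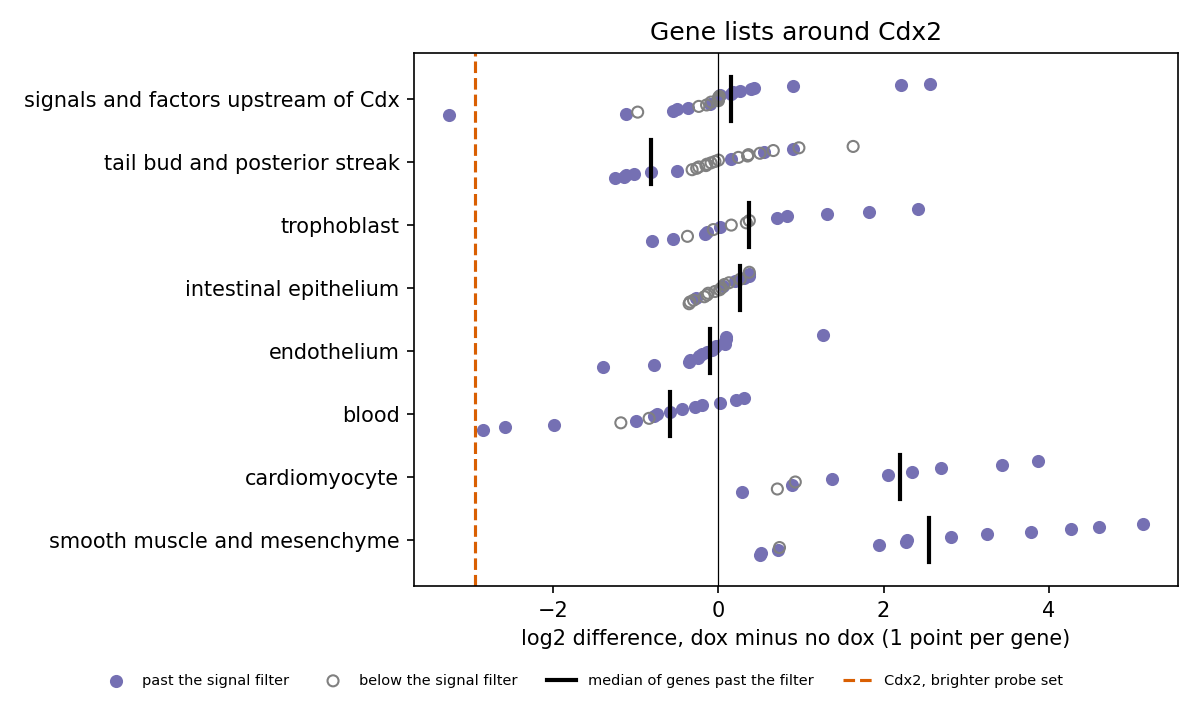
Log2 difference (dox minus no dox) of each measured gene in 8 lists, 1 point per gene, filled when past the signal filter, with a black bar at the median of the filled points and a dashed line at Cdx2 (-2.95). The tail bud and blood medians (-0.82 and -0.58) lie below 0, and those of cardiomyocyte (2.20) and smooth muscle and mesenchyme genes (2.55) above it.

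The other ParaHox genes, relatives of the Hox genes that lie outside their clusters, were dim. Gsx1 (6.69 and 25.8), Gsx2 (85.9 and 92.1) and Pdx1, the pancreas factor next to Cdx2 (70.9 and 126), lay below the array medians on both arrays. Of the genes nearest to Cdx2 on chromosome 5, Pan3 passed the filter and was within 2-fold (0.51). Pdx1 (0.71), Plut (0.16) and Flt3 (0.14), a cytokine receptor gene, were dim, and from their signals without dox a drop to the floor would come to at most 6.17-fold, so they could not have shown the difference of Cdx2. Beside Cdx4 lay Nap1l2 (0.57) and Chic1 (0.52), each within 2-fold. Beside Cdx1, which was at the floor, the platelet-derived growth factor receptor gene Pdgfrb was 4.81-fold higher (303 and 1521) and Slc6a7 was dim (1 and 2.85). The gene order was taken from RefSeq on GRCm38.p6 among genes measured here.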

How the data were processed

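The authors deposited linear signal intensities, 1 for each of 45037 probe sets on each of 2 arrays. RNA was amplified with a 3' IVT kit from 100 ng per the labels' protocols. The sources used here do not give the method of summarising and scaling them. The lowest value is 1 on both arrays. Probe sets were named through the platform annotation (34945 with 1 symbol, 932 with several, 9160 with none). For each gene the brightest probe set by mean signal was taken, analysed as log2(signal + 16), and described by a 2-fold size. The procedure was run on simulated data with large known changes, the same for all probe sets of a gene. Its noise was smaller than the measured SD between probe sets. That run therefore says nothing about genes whose probe sets disagree, such as Cdx2. Alternatives were pseudocounts of 1 and 64, 2 rescalings, the mean of all probe sets, leaving out cross-hybridising probe sets, and other filters. A rule for naming genes covered all caudal and Hox probe sets, neighbours, the 5 nearest differences and the largest differences of each of 17 lists. The text names only part of these genes. It leaves out dim Hox genes, some neighbours and most of the largest differences of the cell type lists. The members and lists were chosen with earlier results of these data known. Python 3.11.15 with pandas 2.3.3 was used. The number of arrays limits the precision.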

Additional observations from a re-analysis of the deposited data

How the results depend on the processing

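The Cdx2 difference ran from -3.17 with a pseudocount of 1 to -1.08 with the mean of its 2 probe sets, over 6 alternatives. All but that mean used the brighter probe set alone and could not reverse its direction. Their shared direction is therefore no added evidence, and the dimmer probe set gave 0.78. A pseudocount of 64 gave -2.44. With a filter on both arrays Cdx2 is not retained. Cdx1 ran from -0.01 to 0 and Cdx4 from -0.17 to -0.01, both in the dim range, where values have no firm order. The count of genes 2-fold or more higher (671) was 417 with a filter on both arrays and 350 with one at the 75th percentile. The count of lower genes (243) was 402 after scaling to one median, 372 without a filter and 135 with the filter at the 75th percentile. The tail bud median of -0.82 was -0.066 without a filter, which adds 15 dim genes. The median of Hox paralogues 5 to 9 stayed between -0.52 and -0.21 and that of the upstream list between -0.01 and 0.26. No paired analysis was possible because each condition has 1 array. A difference or median was taken as moved when the change exceeded 0.38, the SD between probe sets of one gene, and a count when it changed by more than 1.5 times. The correlations over other sets of Hox genes were added after the data were seen.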
